A study of Mus musculus with 12 samples.

Results

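The response of wild-type (WT) mouse lens cells (LCs) to cataract surgery was measured as the difference in RNA between lens capsules taken 24 h post cataract surgery (PCS) and capsules taken at 0 h. All 6 WT libraries entered, 3 at each time, of 12 libraries in the series. The table holds 45859 genes, and 15146 of them, whose mean over these 6 libraries reached 0.5 FPKM (fragments per kilobase of gene, scaled to the fragments of the library), were tested. WT mice were C57BL/6 adults aged 2 months that carried no engineered allele. In both groups the fiber cells had been taken out surgically through the cornea, so that the capsule with the lens epithelial cells (LECs) on it was left in the eye, and several capsules were pooled for each library. The other 6 libraries came from 2-month-old β8ITG-cKO mice of strain Mixed (C57BL/6, 129S1/Sv ), in which MLR10-Cre, a transgene active throughout the lens from an embryonic stage on, deletes a floxed Itgb8, at the same 2 times after the same surgery. They share no library with the WT comparison and are given only beside it. The labels number the libraries of a group and name no animal of origin, so the p-values measure the spread between these libraries.

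The lens is a ball of transparent fiber cells, packed with crystallin proteins, under a single sheet of epithelial cells, all held in a thick basement membrane called the capsule. Cataract surgery takes out the fiber mass and leaves epithelial cells on the capsule, which in the following days can divide, migrate and turn either into myofibroblasts that deposit fibrotic matrix or into new fiber cells, and so cloud the capsule again. Active TGF-β, whose latent form is opened by αV integrins, is a known driver of the myofibroblast route, and surgery is also known to set off an inflammatory response in the eye.

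Several libraries stood apart. Correlations of log2(FPKM + 1) between libraries were 0.927 to 0.962 within a time and 0.835 to 0.874 between the times, and the lowest within-time value joined WT 24 h replicates 1 and 3. Of the 1566 genes called higher at 24 h, 971 were lowest in replicate 3 and 978 highest in replicate 2 of the 24 h libraries. WT 0 h replicate 2 held the most RNA of retinal genes: summed over 14 photoreceptor and bipolar cell markers it was 363, 1224 and 149 FPKM at 0 h and 80.5, 139.8 and 146 FPKM at 24 h. Of these markers, 1 was called lower and 8 were lower at an unadjusted p under 0.05, with a median log2 change of -1.46, while 3 were called lower after rescaling of the libraries to the same median, 12 without WT 0 h replicate 3 and 0 without WT 0 h replicate 1 or without any 1 of the 24 h libraries. Exact zeros need not mean absent RNA: Malat1, a nuclear RNA of nearly every cell type, is listed at 0 in replicate 3 at 0 h, and Cryaa, which encodes αA-crystallin, at 0 in replicate 2 at 0 h, while the lowest of its other 5 values was 13612 FPKM. Relative depths read from the steps between low FPKM were 0.96 to 1.07, and the 10 highest genes took 36.0% to 47.4% of the summed FPKM of a library. Without counts of reads the absolute depth is unknown. RNA of lens cells was found at both times: Pax6, the regulator of eye development, had 88.6, 89.4 and 93.5 FPKM at 0 h and 82.1, 77.5 and 76.5 FPKM at 24 h, and all 10 lens epithelial markers were above 1 FPKM in at least 1 library. Of these markers, 3 (Foxe3, Cryab and Fgfr2) were called lower, with a median log2 change of -0.35, and 1 was called lower without WT 0 h replicate 1 or without WT 24 h replicate 2. The median counts Cryaa with its listed 0.

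A gene was called when limma gave an adjusted p of at most 0.05, the group means differed more than 2-fold and by more than 2 FPKM, and 1 mean was at least 2 FPKM. The log2 change is the mean log2(FPKM + 1) at 24 h minus that at 0 h, which understates the change of genes with low FPKM. Of the 15146 genes, 10.3% were called higher at 24 h and 3.92% lower, 14.3% in all. In 31.3% every 24 h library was above every 0 h library and in 15.6% below. Large changes were mostly rises, with 90 called genes at a log2 change of 3 or more and 18 at -3 or less. The median log2 change over all genes tested was 0.16. When the libraries were rescaled to the same median, 6.49% of 15197 genes were called higher and 6.23% lower, so the share of calls that were rises went from 72.5% to 51.0%, and counts in gene lists are given after rescaling where they moved by over 1.5 times. In whole capsules, fewer cells of a type and less RNA per cell cannot be told apart. A gene that reached the minimum of 0.5 FPKM only through one time had to differ, so the counts and medians over tested members below are descriptions. The 41 gene lists hold 270 of the called genes, and the other 1889 are in no list.

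**Figure D1:**
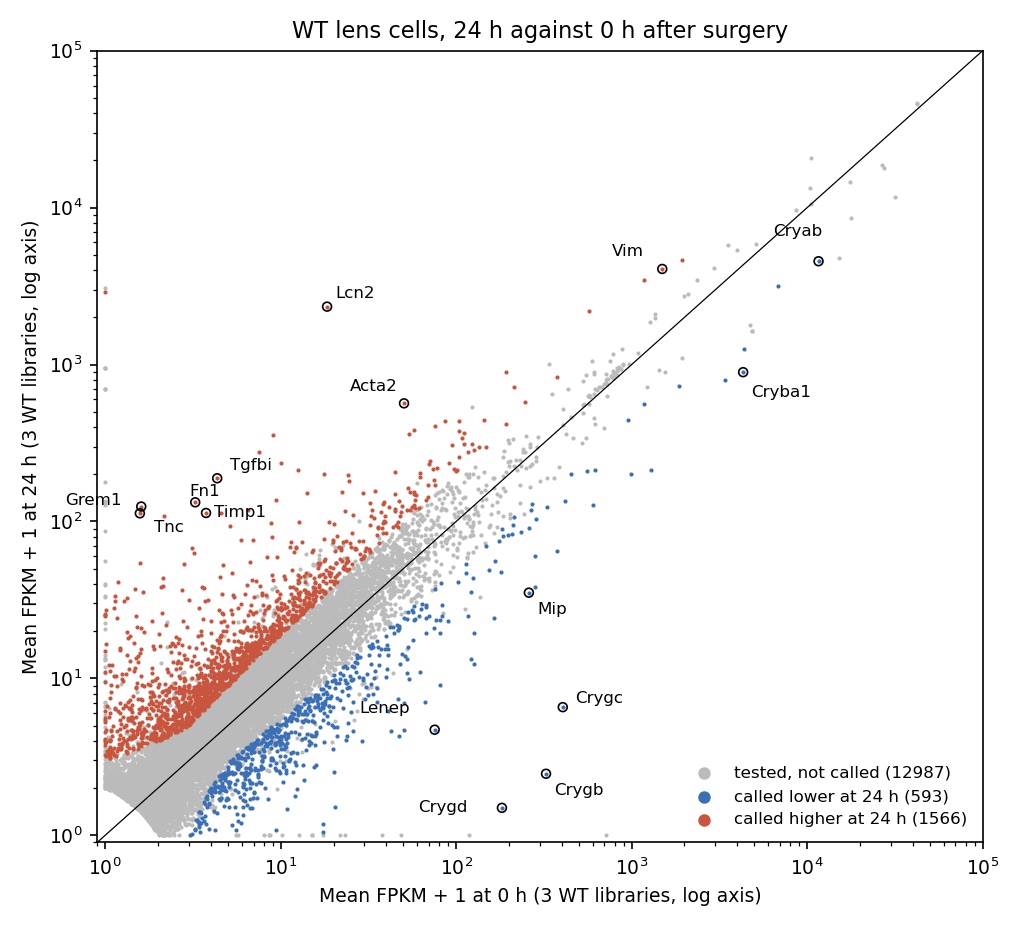
Mean FPKM + 1 at 0 h (x) and 24 h (y) of the 15146 tested genes, on log axes, each mean over 3 WT libraries; 1566 genes called higher are red, 593 called lower are blue and the others grey. Lcn2, Timp1, Tgfbi and other secreted or matrix genes lie far above the line of equal level, and the γ-crystallin genes Crygb, Crygc and Crygd far below it.

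Sequences are given for the chemokines, small secreted proteins that attract leukocytes, and for the γ-crystallins, soluble proteins that fill fiber cells. The 250 bases before the start of the called genes with the largest changes in each group, where RefSeq (GRCm38.p6) had an entry, are shown because most tested chemokine genes were called higher and every γ-crystallin gene was called lower. Capitals mark matches on either strand to 4 motifs: GGGANTTTC for NF-kappaB, TGANTCA for AP-1, TGCTGA for a Maf half-site, whose family includes a lens fiber regulator, and CATTCC for TEAD, the partner of YAP. Cxcl3 (chr5:90785851-90786100, plus strand), Cxcl2 (chr5:90903649-90903898, plus strand) and Ccl3 (chr11:83649379-83649628, minus strand) rose, and Crygb (chr1:65082291-65082540), Crygd (chr1:65063441-65063690) and Crygc (chr1:65073533-65073782), all on the minus strand, fell. Each line runs 5′ to 3′ on the strand of the gene and ends at the base before the start.
Cxcl3: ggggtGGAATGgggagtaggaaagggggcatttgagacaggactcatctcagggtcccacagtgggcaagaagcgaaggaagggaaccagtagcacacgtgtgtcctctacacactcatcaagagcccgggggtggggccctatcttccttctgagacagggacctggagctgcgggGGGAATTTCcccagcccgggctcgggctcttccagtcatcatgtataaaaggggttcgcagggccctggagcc
Cxcl2: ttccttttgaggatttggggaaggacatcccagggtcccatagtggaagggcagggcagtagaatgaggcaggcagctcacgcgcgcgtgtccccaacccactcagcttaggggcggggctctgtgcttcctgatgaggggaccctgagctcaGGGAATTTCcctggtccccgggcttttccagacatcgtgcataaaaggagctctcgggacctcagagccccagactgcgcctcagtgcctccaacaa
Ccl3: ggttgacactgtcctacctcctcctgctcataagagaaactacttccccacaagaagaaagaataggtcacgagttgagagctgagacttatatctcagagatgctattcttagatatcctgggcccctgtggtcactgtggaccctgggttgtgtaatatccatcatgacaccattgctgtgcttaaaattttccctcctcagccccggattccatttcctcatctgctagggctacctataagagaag
Crygb: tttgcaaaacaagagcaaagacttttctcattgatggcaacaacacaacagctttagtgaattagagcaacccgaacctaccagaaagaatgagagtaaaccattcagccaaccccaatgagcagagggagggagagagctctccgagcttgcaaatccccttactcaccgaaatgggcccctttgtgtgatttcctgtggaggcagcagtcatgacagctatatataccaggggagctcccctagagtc
Crygd: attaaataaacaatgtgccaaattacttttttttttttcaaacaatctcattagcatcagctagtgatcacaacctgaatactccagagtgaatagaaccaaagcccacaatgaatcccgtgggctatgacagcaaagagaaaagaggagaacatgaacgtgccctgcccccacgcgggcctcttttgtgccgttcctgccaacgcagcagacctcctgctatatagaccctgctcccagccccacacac
Crygc: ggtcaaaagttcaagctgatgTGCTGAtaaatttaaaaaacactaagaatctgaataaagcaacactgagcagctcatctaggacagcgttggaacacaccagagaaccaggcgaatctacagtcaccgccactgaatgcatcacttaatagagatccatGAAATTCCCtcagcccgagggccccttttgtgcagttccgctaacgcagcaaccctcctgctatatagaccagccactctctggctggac
The NF-kappaB letters were found 73 to 65 bases before the Cxcl3 start, 97 to 89 before that of Cxcl2 and, on the other strand, 90 to 82 before that of Crygc. Of the 10 called chemokine genes, 6 had an entry, and 3 of these held the NF-kappaB letters, 1 the AP-1, 2 the Maf and 1 the TEAD letters. Ccl5, Cxcl5, Ccl4 and Cxcl16 had none. All 8 γ-crystallin genes had an entry, of which 1 held the NF-kappaB, 2 the AP-1, 4 the Maf and 0 the TEAD letters. Over all 32851 promoters of this length, 0.941% held the NF-kappaB, 6.75% the AP-1, 16.1% the Maf and 12.6% the TEAD letters. A match is a description of the sequence and not a site.

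Most tested chemokine genes rose, among them attractants of neutrophils, monocytes and T cells that started near 0. Of 14 tested members of the list of 16, 9 were called higher and 1 lower, against 10.3% and 3.92% of all genes tested. The median log2 change was 1.99. Ccl5, a T cell and monocyte attractant, had 0.503, 0.824 and 0.391 FPKM at 0 h and 31.4, 72.0 and 57.4 FPKM at 24 h (log2 change 5.05 ± 0.29 SE, adjusted p = 8.29e-05). Cxcl5, a neutrophil attractant, had 0.273, 0.291 and 0.277 FPKM at 0 h and 22.0, 37.0 and 31.1 FPKM at 24 h (log2 change 4.57 ± 0.20 SE, adjusted p = 6.24e-05). Every 24 h library was far above every 0 h library for both. Cxcl2 and Cxcl3, which act on the same neutrophil receptor, had log2 changes of 3.33 and 4.56 (adjusted p = 0.00202 and 0.000169). Cxcl1 had 8.74, 2.57 and 1.45 FPKM at 0 h and 9.35, 42.7 and 21.6 FPKM at 24 h, a rise (log2 change 2.30 ± 0.62 SE, adjusted p = 0.0274) whose call was lost in 4 of the 6 fits that left out 1 library, with an adjusted p of up to 0.0879 without WT 24 h replicate 2. Ccl2, the main monocyte attractant, was already abundant at 0 h and overlapped between the times, with 309.7, 189 and 104.97 FPKM at 0 h and 205, 281 and 236 FPKM at 24 h (log2 change 0.38 ± 0.36 SE, adjusted p = 0.460). In β8ITG-cKO LCs it had 3.18, 6.87 and 3.73 FPKM at 0 h and 183, 177 and 236 FPKM at 24 h. The difference between the genotypes was not tested. Cxcl10, which is induced by interferon, went the other way with 8.28, 8.14 and 2.29 FPKM at 0 h and 0.361, 1.71 and 1.26 FPKM at 24 h (log2 change -1.69 ± 0.44 SE, adjusted p = 0.0241), a call lost in 3 of the 6 fits that left out 1 library, with an adjusted p of up to 0.0836 without WT 0 h replicate 1.

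Among cytokine and growth factor genes, 9 of 17 tested were called higher and 0 lower, with a median log2 change of 1.42. Csf3, which encodes G-CSF, the growth factor of neutrophils, had 0, 0.290 and 0.139 FPKM at 0 h and 10.1, 60.4 and 27.2 FPKM at 24 h (log2 change 4.56 ± 0.53 SE, adjusted p = 0.00126). Lif, a ligand of the IL-6 family, had 1.39, 1.31 and 0.942 FPKM at 0 h and 13.9, 28.5 and 20.7 FPKM at 24 h (log2 change 3.26 ± 0.25 SE, adjusted p = 0.000246), and the groups of both genes were apart. Pdgfb, which acts on mesenchymal cells, and Csf1, the macrophage growth factor, had log2 changes of 2.32 and 2.20 (adjusted p = 0.00207 and 0.00154). Il1b, a central inflammatory cytokine, had 0.519, 1.19 and 0.118 FPKM at 0 h and 6.73, 18.8 and 2.58 FPKM at 24 h (log2 change 2.40 ± 0.57 SE, adjusted p = 0.0172), a call lost in 2 of the 6 fits that left out 1 library, with an adjusted p of up to 0.0576 without WT 0 h replicate 3. Il6 itself was not called, with 0, 0 and 0.110 FPKM at 0 h and 0.519, 2.34 and 0.0755 FPKM at 24 h (log2 change 0.77 ± 0.39 SE, adjusted p = 0.170).

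All 13 tested genes of acute-phase and antimicrobial proteins, of 19 listed, were called higher, with a median log2 change of 2.47, and 12 and 13 were called without WT 24 h replicate 3 and without WT 0 h replicate 2. Lcn2, an iron-sequestering antimicrobial protein, had the largest rise among called genes of at least 10 FPKM outside the classes of small RNAs and predicted genes left out of the naming rule (log2 change 6.94 ± 0.51 SE, adjusted p = 0.000212). Chil1, a chitinase-like secreted protein, had 7.43, 14.9 and 4.90 FPKM at 0 h and 174, 195 and 339 FPKM at 24 h (log2 change 4.62 ± 0.39 SE, adjusted p = 0.000355). Steap4, a metalloreductase that inflammatory cytokines induce, had 0.528, 0.700 and 0.230 FPKM at 0 h and 24.1, 32.7 and 51.7 FPKM at 24 h (log2 change 4.59 ± 0.27 SE, adjusted p = 9.07e-05). Saa3, a serum amyloid A protein, had 0, 0 and 0 FPKM at 0 h and 2.15, 4.35 and 9.01 FPKM at 24 h (log2 change 2.47 ± 0.38 SE, adjusted p = 0.00340). No 24 h library overlapped a 0 h library in any of these. Serpina3n, a protease inhibitor of the acute phase that is outside the list, was among the 12 largest rises of the table (log2 change 5.38 ± 0.44 SE, adjusted p = 0.000328).

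Some of the factors and feedback inhibitors that relay these signals rose. Of 14 tested genes of NF-kappaB subunits and inhibitors, 6 were called higher, 3 after rescaling, with a median log2 change of 0.69. Bcl3, a nuclear IκB protein, and Nfkb2, a subunit of the noncanonical arm, led with log2 changes of 3.07 and 1.81 (adjusted p = 0.000539 and 0.00401). Nfkbia, the inhibitor IκBα, had 71.0, 48.6 and 28.6 FPKM at 0 h and 47.4, 113 and 69.8 FPKM at 24 h, and the difference did not pass the test (log2 change 0.63 ± 0.39 SE, adjusted p = 0.253). In the IL-6 family pathway, 5 of 13 were called higher, among them the receptor gene Osmr (log2 change 1.55 ± 0.26 SE, adjusted p = 0.00480). Its feedback inhibitor Socs3 had 29.9, 7.03 and 10.4 FPKM at 0 h and 48.4, 64.9 and 47.7 FPKM at 24 h (log2 change 1.94 ± 0.45 SE, adjusted p = 0.0157), a call lost in 2 of the 6 fits that left out 1 library, with an adjusted p of up to 0.0593 without WT 24 h replicate 2. Immediate early genes, which rise within minutes of a stimulus, were mostly not called at 24 h: 4 of 19 were called higher, 2 higher and 1 lower after rescaling and 1 higher without WT 0 h replicate 2, without WT 0 h replicate 3 or without WT 24 h replicate 2. Fos had 83.6, 29.6 and 14.0 FPKM at 0 h and 10.2, 61.7 and 31.7 FPKM at 24 h (log2 change -0.25 ± 0.74 SE, adjusted p = 0.824). Ier3, an apoptosis inhibitor that NF-kappaB induces, was the member called in all 6 fits without 1 library (log2 change 3.05 ± 0.33 SE, adjusted p = 0.000930). In β8ITG-cKO LCs, 14 of the immediate early genes were called higher, against 11.3% of all genes tested there, and the difference between the genotypes was not tested. In WT the list summed to 589, 386 and 226 FPKM at 0 h and 309, 675 and 441 FPKM at 24 h. Levels at 0 h also differed between the genotypes for some genes named above, such as Nfkbia, with 11.4, 7.72 and 8.99 FPKM at 0 h in β8ITG-cKO LCs.

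Interferon-stimulated genes, the antiviral set, rose in most cases. Of 18 tested, 14 were called higher, with a median log2 change of 2.06. Isg15, a ubiquitin-like protein, had 0.179, 0.927 and 0.0582 FPKM at 0 h and 5.84, 14.8 and 14.8 FPKM at 24 h (log2 change 3.16 ± 0.37 SE, adjusted p = 0.00132). Oasl2, of the 2′-5′ oligoadenylate synthetase family, had 1.21, 2.56 and 1.12 FPKM at 0 h and 11.1, 18.8 and 20.4 FPKM at 24 h (log2 change 2.76 ± 0.28 SE, adjusted p = 0.000745), and neither gene overlapped between the times. Irf1, a factor that acts early in the interferon response, did not pass the test, with 13.8, 8.17 and 6.70 FPKM at 0 h and 6.26, 8.48 and 7.66 FPKM at 24 h (log2 change -0.27 ± 0.25 SE, adjusted p = 0.443). Of genes of MHC class I presentation, 8 of 10 were called higher, with a median of 1.39. H2-D1, a class I heavy chain, had 9.77, 10.7 and 11.1 FPKM at 0 h and 40.9, 52.3 and 51.9 FPKM at 24 h (log2 change 2.09 ± 0.15 SE, adjusted p = 0.000172), though class I heavy chain genes are near-identical and can share reads. B2m, the light chain common to all of them, had 20.4, 26.1 and 15.2 FPKM at 0 h and 59.7, 67.2 and 77.5 FPKM at 24 h (log2 change 1.71 ± 0.21 SE, adjusted p = 0.00149).

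A few complement genes rose: 3 of 12 were called higher, with a median log2 change of 0.21. The values over all genes tested were 10.3% and 0.16. C3, the central component, had 3.10, 9.18 and 2.49 FPKM at 0 h and 43.5, 61.0 and 122 FPKM at 24 h (log2 change 3.73 ± 0.48 SE, adjusted p = 0.00179), and Cfb, its partner in the alternative pathway, had a log2 change of 3.58 (adjusted p = 0.000583). Ptgs2, the inducible cyclooxygenase of prostaglandin synthesis, had 0.728, 0.277 and 0.347 FPKM at 0 h and 6.01, 31.7 and 9.64 FPKM at 24 h (log2 change 3.23 ± 0.50 SE, adjusted p = 0.00368), and 2 of 5 tested genes of its list were called higher.

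Some markers of leukocytes rose as well. Of 12 neutrophil markers, 6 were tested and 5 called higher, and their summed level was 0.741, 0.915 and 0.824 FPKM at 0 h and 68.2, 46.9 and 55.4 FPKM at 24 h. S100a8 and S100a9 are also in the acute-phase list, so the counts of these lists are not separate. S100a9 alone had 0, 0 and 0 FPKM at 0 h and 30.7, 19.3 and 24.2 FPKM at 24 h, a large part of the neutrophil sum. Csf3r, the G-CSF receptor, had 0.144, 0.184 and 0.134 FPKM at 0 h and 8.80, 8.12 and 10.96 FPKM at 24 h (log2 change 3.15 ± 0.17 SE, adjusted p = 6.55e-05). Ly6g, a surface antigen of neutrophils, and Ngp, a granule protein, were listed at 0 in all 6 libraries, and 5 of the 12 markers stayed under 1 FPKM in every library. Of 13 macrophage markers, 4 of 10 tested were called higher, and the sum was 27.5, 27.6 and 14.2 FPKM at 0 h and 59.9, 60.0 and 52.6 FPKM at 24 h. Cd68 and Itgam, found in several myeloid cells, had log2 changes of 2.53 and 3.09 (adjusted p = 0.000160 and 6.58e-05). The macrophage genes Csf1r, with 2.15, 2.72 and 1.47 FPKM at 0 h and 1.68, 2.07 and 1.77 FPKM at 24 h, and C1qa, with 2.78, 2.82 and 0.878 FPKM at 0 h and 0.627, 1.47 and 1.93 FPKM at 24 h, were not called (adjusted p = 0.681 and 0.395). Lymphocyte markers summed to 1.48 FPKM at most. The part of these cells in the chemokine, acute-phase and interferon results was not tested.

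**Figure D2:**
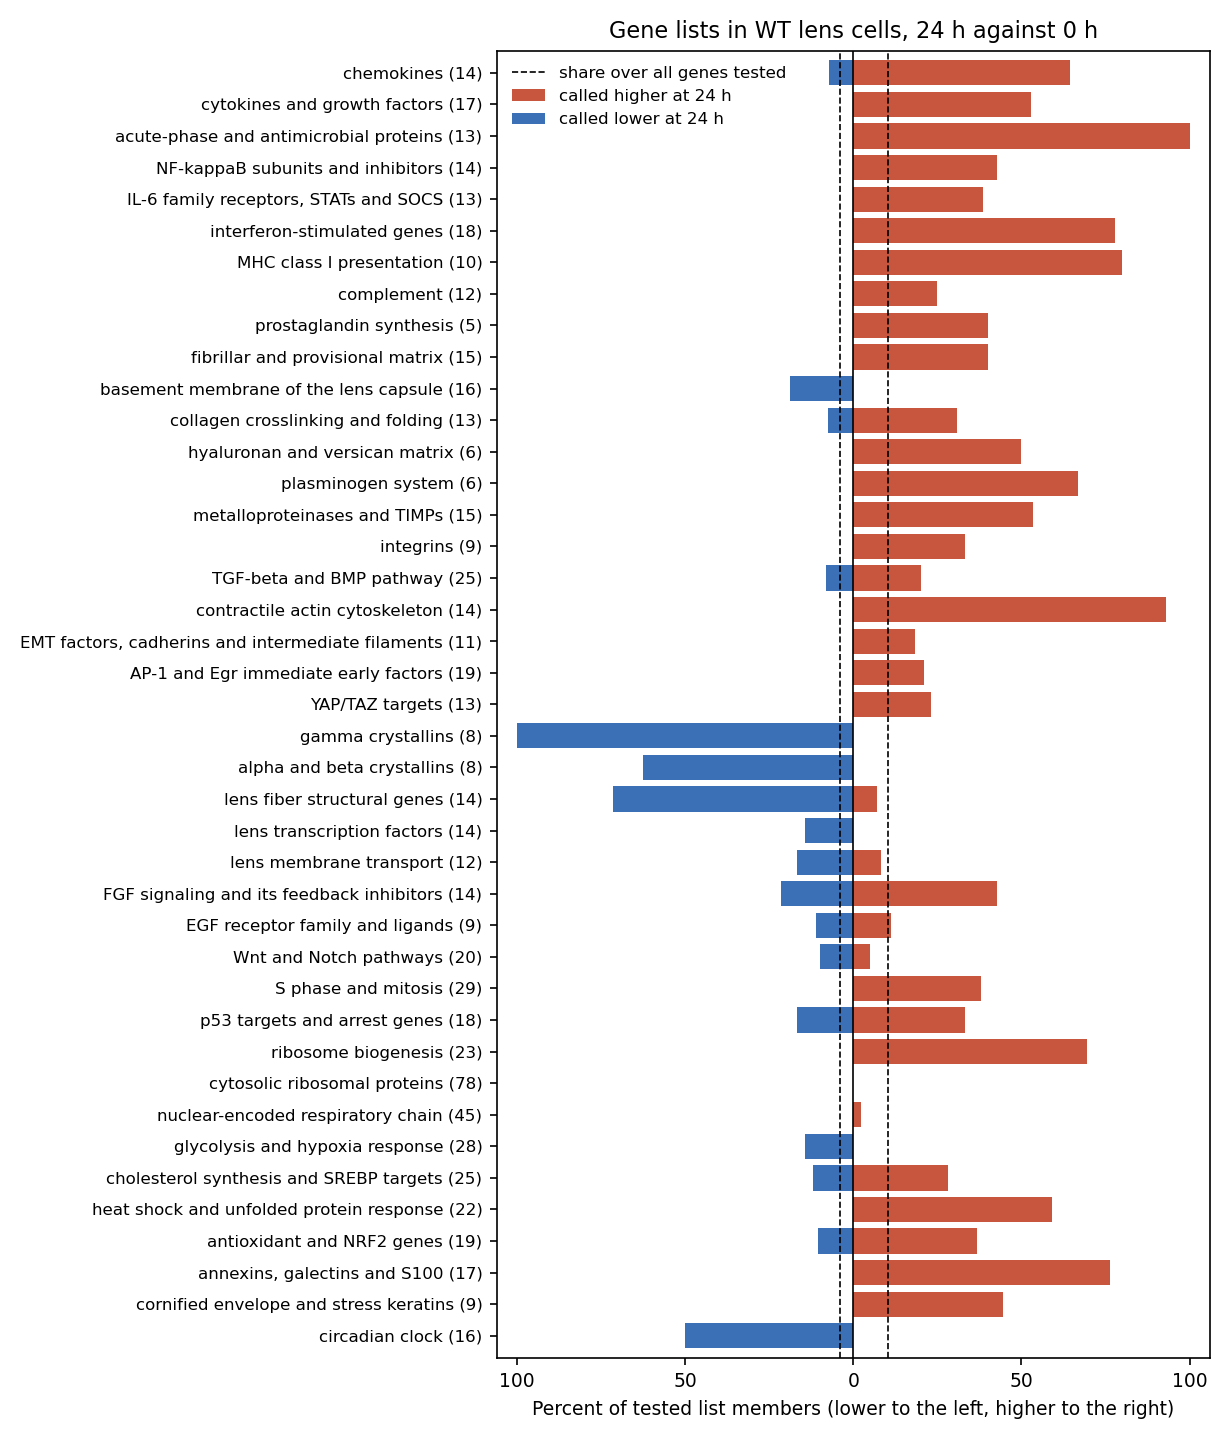
Percent of the tested members of each of 41 gene lists that were called higher (red, to the right) or lower (blue, to the left) at 24 h in WT LCs; the number tested is in brackets and the dashed lines mark 10.3% and 3.92%, the shares over all genes tested. All 13 acute-phase genes and 13 of 14 contractile genes were called higher, all 8 γ-crystallin genes lower, and none of 78 ribosomal protein genes either way.

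Some matrix genes of wounds rose, and the collagen IV chain genes Col4a1 and Col4a2 of the capsule fell. Of 15 tested genes of fibrillar and provisional matrix, 6 were called higher, with a median log2 change of 0.87. Besides Tnc, Ecm1 and Fn1, whose log2 changes were 6.07, 5.57 and 4.73, they held Spp1, which encodes osteopontin, with 1.22, 0.422 and 0.185 FPKM at 0 h and 28.8, 19.8 and 11.03 FPKM at 24 h (log2 change 3.65 ± 0.36 SE, adjusted p = 0.000656). Col1a1, a chain of the main fibrosis collagen, had 1.99, 0.945 and 0.724 FPKM at 0 h and 6.55, 8.76 and 6.96 FPKM at 24 h (log2 change 1.96 ± 0.24 SE, adjusted p = 0.00139), and Col3a1, with a mean under 0.5 FPKM, was not tested. The capsule's own basement membrane genes were called lower in 3 of 16 cases, with a median log2 change of -0.05, 5 lower after rescaling and 5 without WT 0 h replicate 2 or without WT 24 h replicate 1. By the adjusted p alone, 3 of the 16 were higher and 6 lower, against 20.9% and 8.81% of all genes tested. Col4a1, a chain of the collagen IV network, had 1176, 1163 and 1195 FPKM at 0 h and 661, 507 and 514 FPKM at 24 h (log2 change -1.08 ± 0.20 SE, adjusted p = 0.00729). Its partner Col4a2 and the linker Nid1 had log2 changes of -1.41 and -1.08 (adjusted p = 0.00145 and 0.00474), with every 24 h library below every 0 h library in all of these. Lama1 and Lamb1, laminin chains, were not called, with log2 changes of 0.07 and 0.73 (adjusted p = 0.864 and 0.0195). Of 13 genes that crosslink or fold collagen, 4 were called higher. Tgm2, a transglutaminase that joins matrix proteins, had 0.946, 1.04 and 0.567 FPKM at 0 h and 20.8, 32.8 and 13.4 FPKM at 24 h (log2 change 3.58 ± 0.30 SE, adjusted p = 0.000355), Lox, the lysyl oxidase, had a log2 change of 1.77 (adjusted p = 0.00284), and the prolyl hydroxylase gene P4ha2 was called lower, except without WT 0 h replicate 3 (log2 change -1.05, adjusted p = 0.00573).

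Proteases of the wound and their inhibitors rose side by side. In the plasminogen system, 4 of 6 tested genes were called higher, with a median log2 change of 2.13. Plaur, the receptor that holds urokinase on the cell surface, had 0.0759, 0 and 0.462 FPKM at 0 h and 34.0, 69.7 and 16.7 FPKM at 24 h (log2 change 4.92 ± 0.45 SE, adjusted p = 0.000511), and Plau, urokinase itself, had a log2 change of 3.17 (adjusted p = 0.00176). Of 15 tested metalloproteinases and TIMPs, 8 were called higher. Timp1, an inhibitor, had 1.64, 2.55 and 2.58 FPKM at 0 h and 161, 132 and 101 FPKM at 24 h (log2 change 5.33 ± 0.21 SE, adjusted p = 4.59e-05), on chromosome X from 20797784 to 20920918 as the files give the locus, which can span overlapping genes. Adam12, a membrane protease, and Mmp3, stromelysin 1, had log2 changes of 3.71 and 3.44 (adjusted p = 0.000101 and 6.55e-05). Mmp14, the membrane-type collagenase, had 4.68, 5.50 and 4.76 FPKM at 0 h and 15.8, 14.3 and 14.6 FPKM at 24 h (log2 change 1.41 ± 0.13 SE, adjusted p = 0.000576). No time overlapped the other in Plaur, Timp1 or Mmp14. Of 6 hyaluronan genes tested, 3 were called higher, among them Cd44, the hyaluronan receptor (log2 change 1.31 ± 0.15 SE, adjusted p = 0.00117).

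Of 9 tested integrin genes, 3 were called higher, and all of them encode subunits of fibronectin receptors. Itga5 had 4.66, 3.16 and 4.90 FPKM at 0 h and 33.2, 74.4 and 29.5 FPKM at 24 h (log2 change 3.05 ± 0.34 SE, adjusted p = 0.000993). Itgb1, the common β1 chain, had 41.1, 39.4 and 41.2 FPKM at 0 h and 142, 147 and 77.7 FPKM at 24 h (log2 change 1.51 ± 0.25 SE, adjusted p = 0.00424). Itgav, the αV chain, had 29.9, 27.7 and 30.0 FPKM at 0 h and 67.5, 72.2 and 52.6 FPKM at 24 h (log2 change 1.10 ± 0.16 SE, adjusted p = 0.00264), and the times did not overlap for these genes. Itgb8, the αV partner whose floxed allele the β8ITG-cKO mice carry, had 7.26, 10.8 and 8.42 FPKM at 0 h and 9.08, 8.38 and 9.58 FPKM at 24 h and did not pass the test (log2 change 0.04 ± 0.17 SE, adjusted p = 0.873). In the β8ITG-cKO libraries it had 6.83, 4.58 and 7.31 FPKM at 0 h and 9.28, 11.8 and 10.3 FPKM at 24 h. A value over the whole gene cannot show whether a part of it is deleted, so these values do not check the labels. In the TGF-β and BMP pathway, 5 of 25 tested genes were called higher and 2 lower, against 10.3% and 3.92% of all genes tested. The median log2 change was 0.19, close to that of all genes. Tgfbi, a matrix protein named for its induction by TGF-β, had 2.08, 2.89 and 5.07 FPKM at 0 h and 228, 156 and 179 FPKM at 24 h (log2 change 5.48 ± 0.26 SE, adjusted p = 6.24e-05), on chromosome 13 from 56609603 to 56639339. Grem1, a secreted BMP antagonist, had a log2 change of 6.24 (adjusted p = 6.24e-05), and Ltbp1, which ties latent TGF-β to matrix, had 16.6, 23.2 and 16.5 FPKM at 0 h and 63.5, 68.9 and 91.8 FPKM at 24 h (log2 change 1.93 ± 0.20 SE, adjusted p = 0.000741). Among the ligands Tgfb1 was called (1.57, adjusted p = 0.000537) and Tgfb2 and Tgfb3 were not (0.90 and 0.38, adjusted p = 0.00392 and 0.260). Id3 and Id2, textbook BMP targets, were the members called lower. Id3 had 44.7, 60.1 and 34.7 FPKM at 0 h and 19.2, 23.7 and 17.0 FPKM at 24 h (log2 change -1.16 ± 0.22 SE, adjusted p = 0.00773), and 1 of them was called without WT 0 h replicate 2 or without WT 24 h replicate 2.

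Genes of the contractile actin cytoskeleton rose: 13 of 14 tested members of the list of 17 were called higher, with a median log2 change of 2.36. In every library, 3 of the 17 stayed under 1 FPKM. Tagln, an actin-binding protein of smooth muscle, had 2.77, 1.99 and 1.56 FPKM at 0 h and 66.6, 103.6 and 30.2 FPKM at 24 h (log2 change 4.30 ± 0.40 SE, adjusted p = 0.000537). Tpm2, a tropomyosin, had 7.05, 8.85 and 9.48 FPKM at 0 h and 129, 213 and 66.4 FPKM at 24 h (log2 change 3.71 ± 0.37 SE, adjusted p = 0.000734). In Acta2, which encodes α-smooth muscle actin, the 24 h libraries ran over a wide range, 54.2, 54.7 and 39.4 FPKM at 0 h and 526, 968 and 201 FPKM at 24 h (log2 change 3.23 ± 0.50 SE, adjusted p = 0.00363), with replicate 3 lowest, and were still above every 0 h library. Cnn2, a calponin, had a log2 change of 3.40 (adjusted p = 0.000911). Myl9, a myosin light chain, had 9.27, 6.04 and 4.46 FPKM at 0 h and 41.9, 61.8 and 9.57 FPKM at 24 h, and its call (log2 change 2.06 ± 0.60 SE, adjusted p = 0.0371) was lost in 5 of the 6 fits that left out 1 library, with an adjusted p of up to 0.111 without WT 24 h replicate 2. Against 10.3% of all genes tested, and 6.49% after rescaling, 2 of 11 genes of epithelial-mesenchymal transition (EMT) were called higher, 1 after rescaling. These were Vim, the intermediate filament vimentin, with 1519.8, 1543 and 1417 FPKM at 0 h and 4251, 4417 and 3530.4 FPKM at 24 h (log2 change 1.44 ± 0.25 SE, adjusted p = 0.00580), and Zeb1, a repressor of epithelial genes (log2 change 0.99 ± 0.14 SE, adjusted p = 0.00271). Cdh1, E-cadherin, was not called: it had 58.7, 55.6 and 63.0 FPKM at 0 h and 75.2, 77.5 and 90.0 FPKM at 24 h, with an adjusted p of 0.0474 for a log2 change of 0.44, under the fold criterion. Of 13 YAP/TAZ targets and partners, 3 were called higher, against 10.3% of all genes tested. Axl, a receptor kinase, had 3.34, 3.61 and 3.79 FPKM at 0 h and 123, 132 and 83.9 FPKM at 24 h (log2 change 4.61 ± 0.19 SE, adjusted p = 4.59e-05), and the matrix proteins Ctgf and Cyr61 had log2 changes of 1.18 and 1.79 (adjusted p = 0.00755 and 0.0102).

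**Figure D3:**
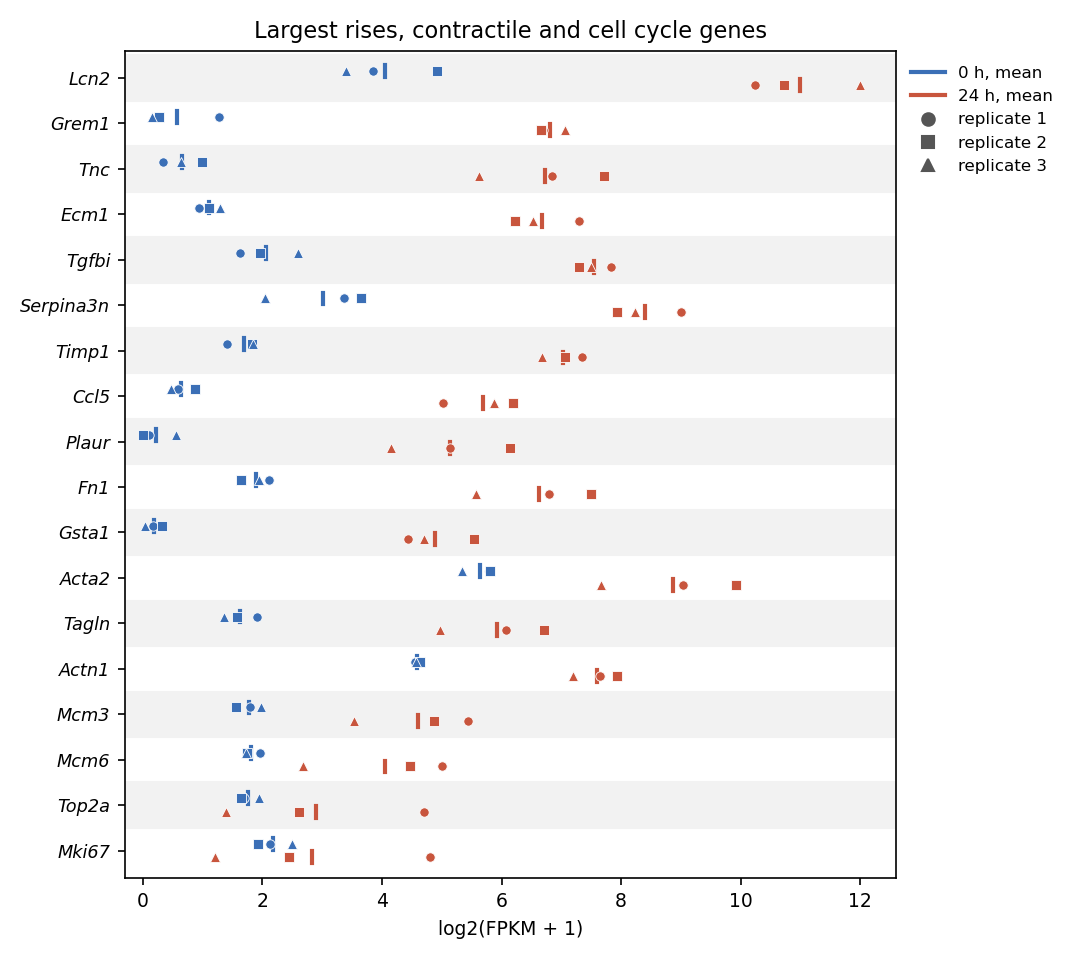
The log2(FPKM + 1) of each WT library at 0 h (blue) and 24 h (red) for genes among the 12 largest rises and for contractile and cell cycle genes; the shape of a point gives the replicate and a short bar the mean of 3 libraries. Every 24 h point lies to the right of every 0 h point except in Top2a and Mki67, where replicate 3 at 24 h lies to the left of all 0 h points and replicate 1 far to the right.

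Fiber cell genes fell. All 8 γ-crystallin genes were called lower, in all 6 fits without 1 library too, with a median log2 change of -3.94. Those on chromosome 1, among them Crygb, Crygc, Crygd, Cryge and Crygf, are close copies of each other, so their reads may be split. Crygb, the largest fall among called genes of at least 10 FPKM, had 318, 345 and 310.0 FPKM at 0 h and 2.21, 1.24 and 0.946 FPKM at 24 h (log2 change -7.07 ± 0.20 SE, adjusted p = 9.52e-06). Crygs, on chromosome 16 and the most abundant of the 8, had 3456, 3910.0 and 2777 FPKM at 0 h and 1054, 513 and 809 FPKM at 24 h (log2 change -2.14 ± 0.32 SE, adjusted p = 0.00327), and Cryge had 10.97, 15.4 and 22.6 FPKM at 0 h and 0, 0 and 0.519 FPKM at 24 h (log2 change -3.86 ± 0.28 SE, adjusted p = 0.000209). The highest 24 h library was below the lowest 0 h library in all 3. Of 8 α- and β-crystallin genes, 5 were called lower, 3 without WT 0 h replicate 1 or without WT 0 h replicate 2, and the median was -1.63. This median counts Cryaa with its listed 0. Crybb1 had 968, 1176 and 824.04 FPKM at 0 h and 287, 89.3 and 219 FPKM at 24 h (log2 change -2.45 ± 0.41 SE, adjusted p = 0.00465), and Cryba1 had 4332, 5262 and 3358 FPKM at 0 h and 1233, 453 and 994 FPKM at 24 h (log2 change -2.37 ± 0.41 SE, adjusted p = 0.00532). Cryba4 had 1311, 1589 and 956 FPKM at 0 h and 293, 41.5 and 303 FPKM at 24 h, with replicate 2 lowest at 24 h (log2 change -3.01 ± 0.71 SE, adjusted p = 0.0170), a call lost in 2 of the 6 fits that left out 1 library, with an adjusted p of up to 0.0551 without WT 0 h replicate 2. Cryab, αB-crystallin, which epithelial cells also make, had 11799.6, 13173 and 9870.3 FPKM at 0 h and 5174, 4529.6 and 3957 FPKM at 24 h, and its call (log2 change -1.35 ± 0.35 SE, adjusted p = 0.0251) was lost in 4 of the 6 fits that left out 1 library, with an adjusted p of up to 0.102 without WT 0 h replicate 1. Cryaa had 28167, 0 and 24296 FPKM at 0 h and 16101, 13612 and 13688 FPKM at 24 h and is given no change because of the listed 0. Crybb2, the most abundant crystallin RNA at 0 h, had 33631, 36677 and 24461 FPKM at 0 h and 13121, 10010 and 11907 FPKM at 24 h. The times did not overlap, but it was not called (log2 change -1.42 ± 0.48 SE, adjusted p = 0.0568, and 0.0434 after rescaling).

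Of 14 structural genes of fiber cells, 10 were called lower and 1 higher, with a median log2 change of -1.52. Mip, the lens water channel aquaporin 0, had 266, 250.3 and 259 FPKM at 0 h and 51.0, 10.9 and 40.6 FPKM at 24 h (log2 change -3.13 ± 0.49 SE, adjusted p = 0.00368). Lim2, a fiber membrane protein, had 134, 125 and 118 FPKM at 0 h and 26.2, 4.63 and 24.3 FPKM at 24 h (log2 change -3.01 ± 0.55 SE, adjusted p = 0.00646). Bfsp1, which builds the beaded filaments of fiber cells, had 326, 304 and 210.0 FPKM at 0 h and 36.3, 26.4 and 48.2 FPKM at 24 h (log2 change -2.90 ± 0.26 SE, adjusted p = 0.000446), and every 24 h library was below every 0 h library in these. The member called higher was Tmod1, an actin capping protein (log2 change 0.95 ± 0.20 SE, adjusted p = 0.0124), named after its value was seen, and no member was called higher without WT 24 h replicate 3. The markers fixed for fiber cells summed to 1842, 1882 and 1715 FPKM at 0 h and 474, 238 and 342 FPKM at 24 h, without overlap. Whether fewer fiber cells or less RNA in each lay behind this was not tested.

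**Figure D4:**
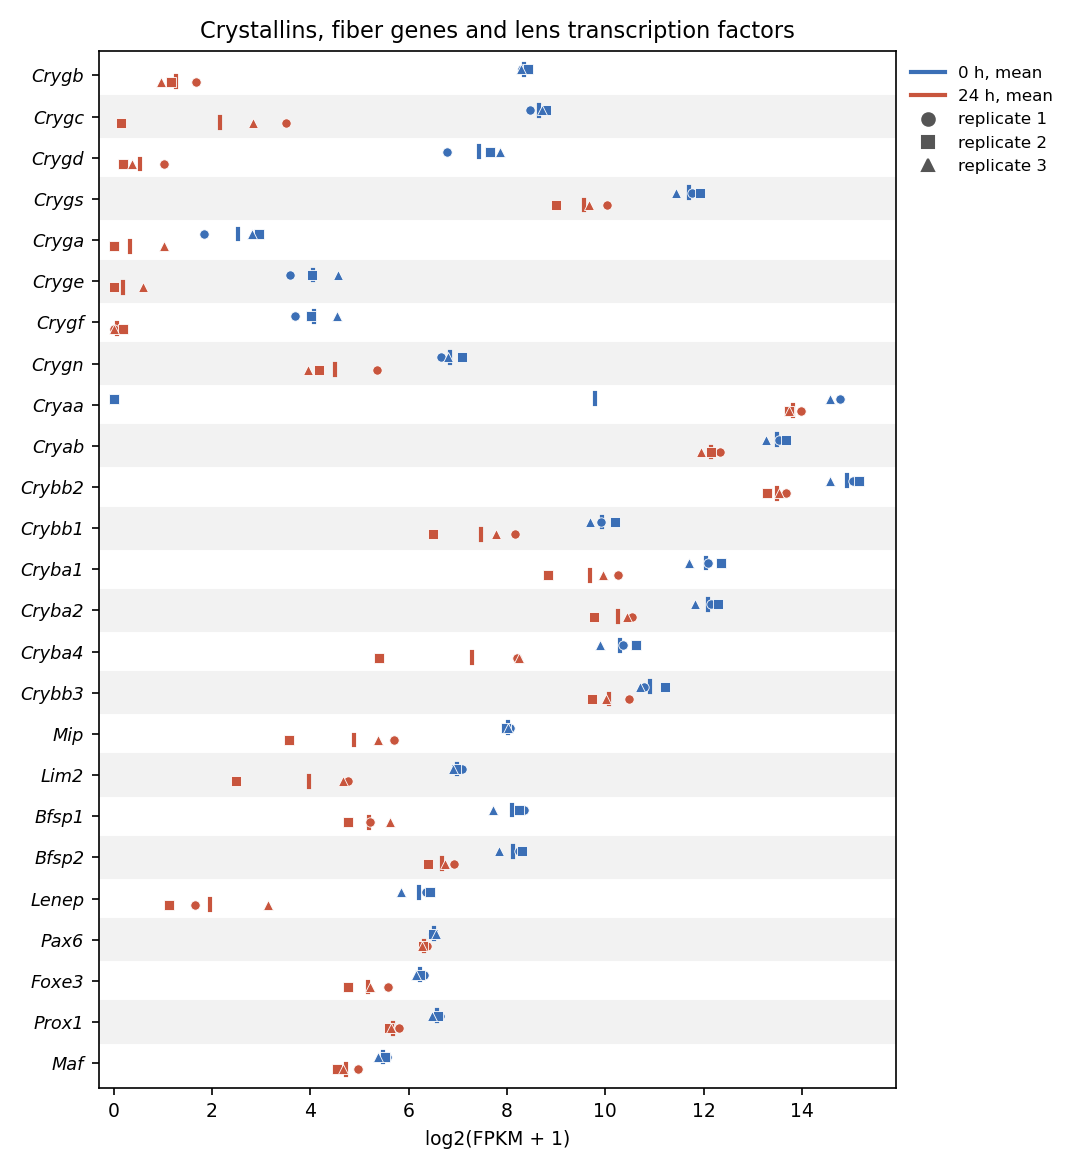
The log2(FPKM + 1) of each WT library at 0 h (blue) and 24 h (red) for crystallin, fiber and lens transcription factor genes; the shape of a point gives the replicate and a short bar the mean of 3 libraries. Crygb, Crygc and Crygd show the widest gaps, with all 24 h points left of all 0 h points, and in Pax6 the points of both times lie close together. The 0 h point of Cryaa at the left edge is a listed 0, which pulls its mean bar.

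Few lens regulators were called, though more of them were lower at 24 h than higher. Of 14 lens transcription factor genes, 2 were called lower, against 3.92% of all genes tested. After rescaling 6 were called lower, against 6.23%, and without WT 24 h replicate 2 it was 1. The median log2 change was -0.38, against 0.16 over all genes tested. By the adjusted p alone, 6 were lower and 1 higher, against 8.81% and 20.9% of all genes tested. Hsf4, which drives crystallin genes in fiber cells, had 6.19, 9.17 and 5.32 FPKM at 0 h and 1.71, 1.70 and 1.63 FPKM at 24 h (log2 change -1.53 ± 0.20 SE, adjusted p = 0.00196). Foxe3, needed to keep the lens epithelium, had 78.0, 74.6 and 70.4 FPKM at 0 h and 46.8, 26.2 and 35.9 FPKM at 24 h (log2 change -1.05 ± 0.21 SE, adjusted p = 0.00910). Pax6 did not pass the test (log2 change -0.20 ± 0.13 SE, adjusted p = 0.269). Prox1 and Maf, which drive fiber differentiation, had log2 changes of -0.89 and -0.76 (adjusted p = 0.00335 and 0.00960) and missed the fold criterion. Of 12 tested transport genes, 2 were called lower and 1 higher, against 3.92% and 10.3% of all genes tested. The gene called higher was the cystine transporter gene Slc7a11. Its call was lost after rescaling and without WT 0 h replicate 2, without WT 0 h replicate 3 or without WT 24 h replicate 3. Atp1b1, the β1 chain of the sodium pump, had 70.7, 66.3 and 62.4 FPKM at 0 h and 29.2, 22.2 and 31.5 FPKM at 24 h (log2 change -1.25 ± 0.16 SE, adjusted p = 0.00194). Gja1, the epithelial connexin 43, had 109.8, 119 and 105.7 FPKM at 0 h and 98.1, 107 and 116 FPKM at 24 h (log2 change -0.06 ± 0.14 SE, adjusted p = 0.789). Aqp1, the epithelial water channel, had 38.3, 38.6 and 56.1 FPKM at 0 h and 42.5, 60.0 and 61.1 FPKM at 24 h (log2 change 0.30 ± 0.21 SE, adjusted p = 0.316), and neither was called.

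FGF drives fiber differentiation from the vitreous side, and its pathway genes changed in opposite ways. Of 14 tested, 6 were called higher and 3 lower. Fgf1 had 7.97, 11.6 and 7.04 FPKM at 0 h and 1.43, 1.38 and 1.67 FPKM at 24 h (log2 change -1.96 ± 0.20 SE, adjusted p = 0.000734). The receptor gene Fgfr3 had 33.6, 28.6 and 37.6 FPKM at 0 h and 12.5, 7.38 and 10.4 FPKM at 24 h (log2 change -1.64 ± 0.20 SE, adjusted p = 0.00154), while Fgfr1 was not called (log2 change 0.87 ± 0.15 SE, adjusted p = 0.00489). The members called higher included the feedback phosphatase gene Dusp6, with 3.43, 3.51 and 2.54 FPKM at 0 h and 10.4, 15.4 and 10.3 FPKM at 24 h (log2 change 1.63 ± 0.20 SE, adjusted p = 0.00140), and Etv4, a target factor of the pathway (log2 change 1.54 ± 0.20 SE, adjusted p = 0.00182). The EGF receptor family and the Wnt and Notch pathways had few calls in number. Over all genes tested 10.3% were called higher and 3.92% lower. By the adjusted p alone, 5 of 9 EGF receptor family genes were higher and 1 lower. Of 20 Wnt and Notch genes, 3 were higher and 4 lower, against 20.9% and 8.81% of all genes tested. The calls of both lists are given as single genes and not as results about the pathways. Of 9 EGF receptor family genes, 1 was called higher, Errfi1, a feedback inhibitor of the receptor (log2 change 1.30 ± 0.37 SE, adjusted p = 0.0330), and 1 lower, the receptor gene Erbb4 (log2 change -1.29 ± 0.28 SE, adjusted p = 0.0121). The number called higher by limma was 4 without WT 24 h replicate 3, and 0 without any 1 of the 0 h libraries, without WT 24 h replicate 2 or after rescaling. In the Wnt and Notch pathways, 1 of 20 genes was called higher and 2 lower, with 1 lower without any 1 of the 0 h libraries or without WT 24 h replicate 2. The gene called higher was the Notch ligand gene Jag1, with 10.8, 10.3 and 13.5 FPKM at 0 h and 61.9, 48.9 and 23.4 FPKM at 24 h (log2 change 1.77 ± 0.33 SE, adjusted p = 0.00693). Those called lower were Hey1, a Notch target (log2 change -1.22 ± 0.30 SE, adjusted p = 0.0199), and Dkk3, a secreted protein related to Wnt inhibitors, with 577, 699 and 585 FPKM at 0 h and 235, 149 and 248 FPKM at 24 h (log2 change -1.58 ± 0.24 SE, adjusted p = 0.00308).

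Some cell cycle genes rose, while Mki67 and Top2a did not pass the test. Of 29 tested cell cycle genes 11 were called higher, and the count moved with single libraries: it was 19 without WT 24 h replicate 3, 6 without WT 0 h replicate 2 or WT 24 h replicate 2, and 7 without WT 0 h replicate 1 or 3. The largest log2 changes were those of helicase genes that license origins. Mcm3 had 2.46, 1.93 and 2.95 FPKM at 0 h and 42.2, 28.2 and 10.6 FPKM at 24 h (log2 change 2.84 ± 0.43 SE, adjusted p = 0.00336), and Mcm5 had 1.80, 1.29 and 2.11 FPKM at 0 h and 25.1, 16.3 and 4.92 FPKM at 24 h (log2 change 2.35 ± 0.48 SE, adjusted p = 0.0102), with replicate 3 lowest at 24 h and still above every 0 h library. Mki67, the proliferation marker Ki-67, had 3.37, 2.78 and 4.63 FPKM at 0 h and 27.0, 4.46 and 1.31 FPKM at 24 h (log2 change 0.64 ± 0.78 SE, adjusted p = 0.560). Top2a, the mitotic topoisomerase, had 2.24, 2.11 and 2.86 FPKM at 0 h and 25.0, 5.13 and 1.61 FPKM at 24 h (log2 change 1.14 ± 0.71 SE, adjusted p = 0.256). Both were highest at 24 h in replicate 1 and lowest in replicate 3, which lay below every 0 h library, so the times overlapped. Of 18 p53 targets and arrest genes, 6 were called higher and 3 lower. Cdkn1a, the inhibitor p21, had 2.41, 2.97 and 1.65 FPKM at 0 h and 7.25, 9.67 and 6.82 FPKM at 24 h (log2 change 1.42 ± 0.21 SE, adjusted p = 0.00277), while Cdkn1c, the inhibitor p57 that marks lens cells leaving the cycle, had 46.6, 57.6 and 50.3 FPKM at 0 h and 9.52, 7.34 and 12.6 FPKM at 24 h (log2 change -2.30 ± 0.20 SE, adjusted p = 0.000386).

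Genes that build ribosomes rose and the ribosomal proteins themselves did not pass the calling criteria. Of 23 tested ribosome biogenesis genes, 16 were called higher, with a median log2 change of 1.16. Npm1, a nucleolar chaperone, had 62.2, 68.0 and 54.2 FPKM at 0 h and 229, 256 and 126 FPKM at 24 h (log2 change 1.65 ± 0.27 SE, adjusted p = 0.00418), and Nop56, of the box C/D particles, had 13.1, 12.9 and 15.0 FPKM at 0 h and 47.9, 53.7 and 31.9 FPKM at 24 h (log2 change 1.60 ± 0.20 SE, adjusted p = 0.00173), without overlap. Of 78 ribosomal protein genes, limma called 0, 24 had an unadjusted p under 0.05 with higher values at 24 h, 12 were higher by the adjusted p alone, against 20.9% of all genes (8.81% were lower by this criterion), and 5 were called higher without WT 24 h replicate 3. Their median was 0.32, against 0.16 over all genes. In the respiratory chain 1 of 45 genes was called, with a median of 0.27, and none was called after rescaling, without WT 0 h replicate 3 or without WT 24 h replicate 2. Chaperones of the endoplasmic reticulum and other stress genes were called higher in 13 of 22 cases. Hspa5, the chaperone BiP, had 72.4, 77.1 and 68.3 FPKM at 0 h and 195, 251 and 202 FPKM at 24 h (log2 change 1.55 ± 0.16 SE, adjusted p = 0.000736). Asns, asparagine synthetase, a target of the amino acid response, had 0.978, 1.16 and 0.392 FPKM at 0 h and 7.60, 15.8 and 6.15 FPKM at 24 h (log2 change 2.48 ± 0.33 SE, adjusted p = 0.00205). Hspa1a, the inducible heat shock protein, had 17.9, 16.0 and 10.6 FPKM at 0 h and 5.53, 16.5 and 17.3 FPKM at 24 h and was not called (log2 change -0.28 ± 0.40 SE, adjusted p = 0.627).

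Metabolic genes moved in part. Of 28 genes of glycolysis and the hypoxia response, 4 were called lower. Aldoc, an aldolase, had 297, 298 and 247 FPKM at 0 h and 55.1, 49.5 and 72.1 FPKM at 24 h (log2 change -2.25 ± 0.18 SE, adjusted p = 0.000335). Ndrg1, Pdk1 and Bnip3, which hypoxia induces in many cells, had log2 changes of -1.53, -1.37 and -1.14 (adjusted p = 0.0101, 0.00144 and 0.00261). Of 25 cholesterol and SREBP genes, 7 were called higher, 4 after rescaling, and 3 lower. Msmo1, an oxidase of the sterol pathway, had 10.8, 10.7 and 13.1 FPKM at 0 h and 48.5, 40.2 and 29.7 FPKM at 24 h (log2 change 1.67 ± 0.20 SE, adjusted p = 0.00130), and Scd2, a fatty acid desaturase, had 205, 196 and 219 FPKM at 0 h and 112, 67.7 and 67.2 FPKM at 24 h (log2 change -1.35 ± 0.22 SE, adjusted p = 0.00425). Of 19 antioxidant genes, 7 were called higher, 3 after rescaling and 4 without WT 24 h replicate 2, and 2 lower. Hmox1, heme oxygenase 1, had 10.1, 7.97 and 7.40 FPKM at 0 h and 51.2, 76.0 and 47.7 FPKM at 24 h (log2 change 2.62 ± 0.21 SE, adjusted p = 0.000283). Gstm1, a glutathione transferase, had 429, 407 and 411 FPKM at 0 h and 122, 126 and 152 FPKM at 24 h (log2 change -1.64 ± 0.16 SE, adjusted p = 0.000633).

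Calcium- and sugar-binding proteins rose: 13 of 17 annexin, galectin and S100 genes were called higher, with a median log2 change of 1.12. In β8ITG-cKO LCs 4 of them were called higher, against 11.3% of all genes tested there, and the difference between the genotypes was not tested. Levels at 0 h were not the same in both genotypes for S100a6, with 211, 176 and 185 FPKM in WT and 552, 374 and 499 FPKM in β8ITG-cKO LCs. The other members are not compared at 0 h here. Lgals1, galectin 1, had 51.3, 59.0 and 47.8 FPKM at 0 h and 374, 442 and 271 FPKM at 24 h (log2 change 2.74 ± 0.21 SE, adjusted p = 0.000238). Anxa2, a membrane-binding annexin, had 57.7, 49.2 and 63.0 FPKM at 0 h and 401, 449 and 299 FPKM at 24 h (log2 change 2.72 ± 0.20 SE, adjusted p = 0.000194). Anxa1 had 479, 476 and 402 FPKM at 0 h and 666, 440.1 and 288 FPKM at 24 h and was not called (log2 change -0.04 ± 0.30 SE, adjusted p = 0.931). Of 9 tested genes of the cornified envelope and stress keratins, which mark injured skin and corneal epithelium, 4 were called higher. Sprr1a had 2.53, 1.08 and 1.81 FPKM at 0 h and 57.8, 53.2 and 45.7 FPKM at 24 h (log2 change 4.27 ± 0.21 SE, adjusted p = 6.24e-05), and Krt17 had 0.0245, 0.0895 and 0.0715 FPKM at 0 h and 3.03, 8.11 and 3.86 FPKM at 24 h (log2 change 2.41 ± 0.30 SE, adjusted p = 0.00153). Of 6 corneal epithelial markers none was called by limma and 1 had an unadjusted p under 0.05, and their sum was 272, 213 and 253 FPKM at 0 h and 292, 156 and 451 FPKM at 24 h. Markers of corneal stroma, by contrast, were called lower in 3 of 3 cases, and their sum was 41.1, 37.9 and 38.2 FPKM at 0 h and 12.04, 5.89 and 8.31 FPKM at 24 h. Among the pigment cell markers of the iris and ciliary body, Oca2, a melanosome protein, was called lower (log2 change -2.99 ± 0.17 SE, adjusted p = 8.12e-05), with 2 of 6 lower after rescaling, without WT 0 h replicate 3 or without WT 24 h replicate 3, and the sum was 107, 46.5 and 36.5 FPKM at 0 h and 30.9, 28.8 and 34.8 FPKM at 24 h. Red cell markers summed to 153, 73.7 and 68.0 FPKM at 0 h and 36.0, 219.7 and 170.2 FPKM at 24 h, with none called by limma and 0 at an unadjusted p under 0.05. The part of such cells in other results was not tested.

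Clock genes fell in WT LCs. Of 16 tested, 8 were called lower, with a median log2 change of -0.86, and 5 were called lower without WT 0 h replicate 1 or without WT 24 h replicate 1. Arntl, which encodes the activator BMAL1, had 8.92, 11.6 and 10.1 FPKM at 0 h and 2.30, 2.00 and 1.80 FPKM at 24 h (log2 change -1.88 ± 0.16 SE, adjusted p = 0.000355). Nr1d1, the repressor REV-ERBα, had 33.6, 45.2 and 38.7 FPKM at 0 h and 8.16, 13.3 and 9.92 FPKM at 24 h (log2 change -1.82 ± 0.20 SE, adjusted p = 0.000930). Per1, a period repressor, had 24.4, 29.4 and 19.2 FPKM at 0 h and 6.86, 9.23 and 10.3 FPKM at 24 h (log2 change -1.37 ± 0.20 SE, adjusted p = 0.00316), and Hlf, an output factor, had 16.9, 20.02 and 16.8 FPKM at 0 h and 5.40, 5.69 and 5.96 FPKM at 24 h (log2 change -1.50 ± 0.14 SE, adjusted p = 0.000511). The 24 h libraries were below every 0 h library in each of these. Per2 and Per3 were not called, with log2 changes of -0.25 and -0.26 (adjusted p = 0.257 and 0.245). In β8ITG-cKO LCs over the same interval, 2 clock genes were called higher and 2 lower, and the median was 0.30. Nr1d1 there had 7.10, 7.50 and 7.86 FPKM at 0 h and 15.5, 22.96 and 15.9 FPKM at 24 h (log2 change 1.15 ± 0.15 SE, adjusted p = 0.000741), and Per1 had 6.82, 6.10 and 4.39 FPKM at 0 h and 9.68, 9.44 and 8.03 FPKM at 24 h (log2 change 0.58 ± 0.16 SE, adjusted p = 0.0173). The difference between the genotypes was not tested here, and the hour of day at harvest is not given in the sources used here.

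**Figure D5:**
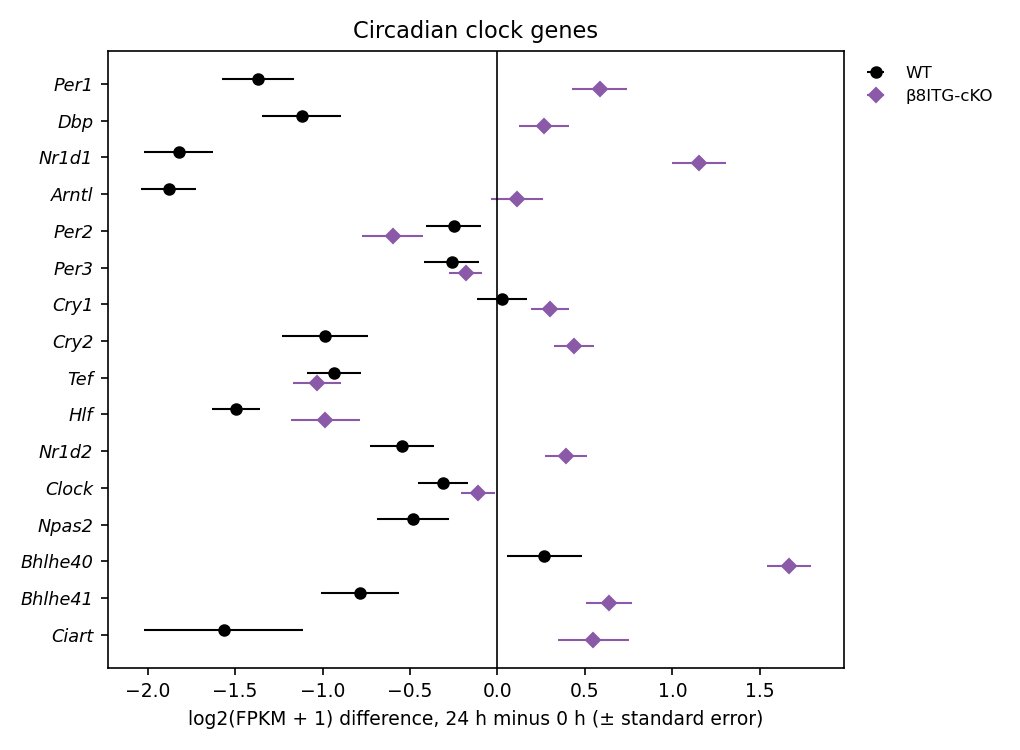
Difference of mean log2(FPKM + 1), 24 h minus 0 h, with its standard error, for clock genes in WT (black circles) and β8ITG-cKO LCs (purple diamonds), 3 libraries per time in each genotype. Nr1d1 lies at -1.82 in WT and 1.15 in β8ITG-cKO LCs, Per1 at -1.37 and 0.58, while Tef and Hlf lie left of 0 in both. Npas2 was not tested in β8ITG-cKO LCs.

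Over all genes, the β8ITG-cKO libraries, of another strain background and with no library in common, gave 11.3% of 15237 genes called higher at 24 h and 3.77% lower. Among the 14488 genes tested in both genotypes these shares were 11.8% and 3.95%. Called higher in both were 774 genes, 49.4% of the WT and 45.0% of the β8ITG-cKO calls, and called lower in both 295, which is 49.7% and 51.3%. Of 1551 genes called higher in WT and tested in both, 1527 had a change of the same sign in β8ITG-cKO LCs, and of 589 called lower, 478. Limma called 0 genes higher in WT and lower in β8ITG-cKO LCs, where 8 of the WT rises were lower at an unadjusted p under 0.05, and 29 were called the other way round, among them Abca4 and Pdc of photoreceptors, Snap25 of neurons and Nr1d1. In WT, 7 of these 29 passed the adjusted p in all 6 fits that left out 1 library, Nr1d1 among them, while Abca4 passed in 3 and Pdc and Snap25 in 2, with an adjusted p of up to 0.0705, 0.104 and 0.119. Of the 14 retinal markers 12 were called higher in β8ITG-cKO LCs, with a median log2 change of 1.66. Gene by gene, Timp1 had 18.4, 12.7 and 17.4 FPKM at 0 h and 105.1, 81.2 and 101 FPKM at 24 h in β8ITG-cKO LCs, and Crygb had 301, 122 and 203 FPKM at 0 h and 10.2, 1.24 and 0.870 FPKM at 24 h, both moving the same way as in WT. Tagln had 0.493, 0.609 and 0.469 FPKM at 0 h and 34.2, 51.3 and 23.04 FPKM at 24 h, and Tgfbi had 11.3, 4.36 and 8.81 FPKM at 0 h and 134, 143 and 167 FPKM at 24 h. Whether these changes differ in size between the genotypes was not tested here.

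By FPKM, which is scaled to gene length and is not an amount of RNA, the highest ranked genes at 0 h were small RNAs and crystallins. The ranking leaves out snoRNAs, miRNAs, snRNAs, rRNAs, mitochondrial genes, pseudogenes and predicted genes. Its 10 highest genes at 0 h were Rn7s2, Rn7s1, Rpph1, Crybb2, Cryaa, Rny3, Cryab, Bc1, Cryba2 and Cryba1. At 24 h Vim and Rmrp, the RNA of a nuclear ribonuclease, entered this set. The largest gains of mean FPKM among called genes were those of Lcn2, Vim, Nupr1, Actb, S100a6 and Acta2. Nupr1, a stress-induced chromatin protein, had 1304, 1211 and 1028 FPKM at 0 h and 3291, 3403 and 3672 FPKM at 24 h (log2 change 1.55 ± 0.24 SE, adjusted p = 0.00368). Actb, cytoplasmic β-actin, had 570.2, 636 and 513 FPKM at 0 h and 2251, 3016 and 1302 FPKM at 24 h (log2 change 1.85 ± 0.33 SE, adjusted p = 0.00580). The largest losses among called genes were those of Cryab, Cryba2, Cryba1, Crygs, Igfbp7 and Cryba4. Igfbp7, a secreted insulin-like growth factor binding protein, had 1962, 1796 and 1841 FPKM at 0 h and 837, 603 and 758 FPKM at 24 h (log2 change -1.36 ± 0.22 SE, adjusted p = 0.00449), with no overlap between the times. Among the 12 largest falls outside the lists were Ttr, transthyretin, which the ciliary body and retinal pigment epithelium also make, with 13.4, 31.8 and 12.9 FPKM at 0 h and 0.670, 0.575 and 0.294 FPKM at 24 h (log2 change -3.64 ± 0.33 SE, adjusted p = 0.000499), Car14, a membrane carbonic anhydrase (log2 change -3.46 ± 0.17 SE, adjusted p = 6.24e-05), and Podn, a small leucine-rich proteoglycan (log2 change -3.28 ± 0.24 SE, adjusted p = 0.000212).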

How the data were processed

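RNA from lens capsules with attached cells was made into stranded total RNA libraries with a SMARTer kit for picogram input, which amplifies strongly, and sequenced as read pairs. The submitters' processing notes name FastQC, cutadapt 1.12, TopHat2 2.1.0 and Cuffdiff 2.2.1, with the builds mm10 and GRCm38.p5, and the annotation and the use of strand in counting are not given in the sources used here. The authors deposited FPKM per gene and library as Cuffdiff gave them, in 4 tables that also hold their own comparisons (group values and fold changes with p and q-values), which were not used. Of the 4 deposited tables those of WT and of β8ITG-cKO over time were used. Gene starts in the files count from 0 and were converted to count from 1. FPKM carry no read counts, so no counting error can be given, and a low level in few reads cannot be told from a low level in many.

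Groups came from the sample titles. In R 4.3.3, limma 3.58.1 was applied to each comparison (linear model with empirical Bayes and a mean trend) on log2(FPKM + 1) over its 6 libraries, for genes whose mean reached 0.5 FPKM, with Benjamini-Hochberg adjustment over all genes tested. A call required all of: adjusted p up to 0.05, group means more than 2-fold apart, a gap between them above 2 FPKM, and 2 FPKM or more in the higher group. The fit was tested on simulated data with known changes. An exact permutation test of 3 against 3 libraries cannot go below a p of 0.1 and was not used. The FPKM of rescaled libraries were set to a common median, taken over genes whose mean reached 2 FPKM. Other alternatives were a pseudocount of 0.1, other minimum levels, other criteria, 1 fit over 12 libraries, the replicate number as a block and each library left out.

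The comparison, the 41 gene lists and the 11 marker lists were chosen with earlier results of these data known. Named genes are, among called genes without overlap that reached 10 FPKM, the 12 that rose most and the 12 that fell most. They also hold the 10 highest genes of each time and the 6 largest gains and losses of FPKM. These first parts leave out snoRNAs, miRNAs, snRNAs, rRNAs, mitochondrial genes, pseudogenes and predicted genes. Of each list, the first 4 members and up to 4 called members with the largest change were named. Cell type markers and Cxcl10, Id2, Id3, Tmod1, Top2a, Per2, Per3, Malat1, Abca4, Pdc and Snap25 were named after their values were seen. A few genes that this rule names are not reported here. Promoter sequences are those of RefSeq on GRCm38.p6. Summaries used Python 3.11.15 with numpy 2.4.6, pandas 2.3.3 and, for the plots, matplotlib 3.10.9.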

Additional observations from a re-analysis of the deposited data

Results flagged for a closer look

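In 10 of the genes that the naming rule picks or that were named after their values were seen, the 24 h libraries lay all on one side of the 0 h libraries in WT and all on the other side in β8ITG-cKO LCs, although the difference between the genotypes was not tested. Nr1d1, a clock repressor, had a log2 change of -1.82 in WT and 1.15 in β8ITG-cKO LCs. Per1, a period gene, had -1.37 and 0.58, and Ciart, a clock-controlled repressor, had -1.57 and 0.55. Cdh1, which encodes E-cadherin, had log2 changes of 0.44 in WT and -1.15 in β8ITG-cKO LCs. Slc7a11, a cystine transporter, had 0.99 and -0.56, and Rplp0, a ribosomal stalk protein, had 0.40 and -0.18. Cxcl10, an interferon-induced chemokine, had -1.69 and 0.96. Of photoreceptor and neuron genes, Abca4 had -1.53 and 1.24, Pdc -2.19 and 1.57, and Snap25 -1.78 and 2.20. The genotypes also differ in strain background.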

How the results depend on the processing

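Counts of called genes depended most on the criteria. With the adjusted p alone, 4500 genes were called in WT (3165 higher and 1335 lower) and 7030 in β8ITG-cKO LCs (5394 higher and 1636 lower). With a fold over 4, the counts were 660 (479 higher and 181 lower) and 899 (745 higher and 154 lower). Rescaling to the same median gave 986 higher and 947 lower in WT and 890 lower in β8ITG-cKO LCs. Leaving out 1 library gave 1650 to 2611 calls in WT, 1171 to 1949 of them higher and 479 to 703 lower, with the fewest calls in all without WT 24 h replicate 2 and the most in all without WT 24 h replicate 3, while the 703 lower calls came without WT 0 h replicate 3. In β8ITG-cKO LCs the range was 2229 to 2391, with 1626 to 1805 higher and 528 to 634 lower. A pseudocount of 0.1, a minimum mean of 2 FPKM, no minimum and 1 fit over 12 libraries gave 2183, 2050, 1750 and 2276 calls in WT. Among the 258 tested genes that the naming rule picks, no call was turned in direction by an alternative that gave a value. With FPKM and no counts, precision at low levels is unknown.

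The replicate number was also fitted as a block. Deviations of same-numbered WT libraries from their group means correlated at 0.08, 0.05 and -0.05, so the numbers were not taken to pair the libraries. With the block 2094 genes were called in WT, 1533 higher and 561 lower, and 2068 of these were also called without it, and 2301 genes were called in β8ITG-cKO LCs.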
